A study of Mus musculus with 12 samples.

Results

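The hepatic response to dextran sulfate sodium (DSS) colitis that wild-type and RelaΔhepStat3Δhep mice had in common was described from 12 liver transcriptomes, 6 from treated and 6 from untreated mice. Its members were the autosomal genes in which all 6 treated livers lay on one side of all 6 untreated livers, here called separated genes. Of 13853 autosomal genes tested, 501 were separated, 340 of them (2.45% of the genes tested) higher and 161 (1.16%) lower after DSS. A test of treated against untreated livers with genotype as a block was run over the same genes, and 392 of the 501 also passed it. Members on the higher side included interferon-stimulated genes, monocyte-attracting chemokines and macrophage transcripts. Those on the lower side included the lipogenic genes Thrsp and Scd1 and the clock genes Per2 and Usp2.

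Each of the 4 groups held 3 C57BL/6 mice, used at 5 to 7 weeks of age per the methods of the study, and the sex of each mouse was not given. Wild-type (WT) littermates were either left on water or given 2% DSS in the drinking water for 6 days. The methods of the study use wild-type for Cre-negative littermates with floxed Rela and Stat3. RelaΔhepStat3Δhep (KO) mice, in which Cre under the albumin promoter deletes Rela and Stat3 in hepatocytes, were left untreated or given DSS on the same schedule. By this design other liver cells of the KO mice are meant to keep both genes, which was not checked here. Whole-liver RNA was depleted of rRNA and sequenced, so fewer cells of a type and less RNA per cell cannot be told apart in any of these values. Each library was labelled as a replicate and the study calls them biological replicates.

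DSS injures the colonic epithelium, and microbial products and cytokines then reach the liver through the portal vein. Type I interferons bind their receptor and induce antiviral genes through interferon-stimulated response elements in the promoters. Hepatocytes answer interleukin 6 through Stat3 and endotoxin through NF-kB, of which Rela is a subunit, with acute-phase proteins, whereas Kupffer cells and recruited monocytes supply chemokines. The liver also makes fatty acids under the control of SREBP1c and the carbohydrate sensor ChREBP, and many of its metabolic genes follow the circadian clock.

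Library totals ran from 65879529 to 82850098 estimated counts, and hepatocyte marker genes summed to between 146578 and 212574 CPM (counts scaled to library size, with TMM factors) in each library. Rela lay between 39.5 and 62.3 CPM in every library, KO livers included, and the table holds no exon counts, so gene-level counts did not check the deletion. Stat3 stood at 43.0 to 74.8 CPM in the 6 KO libraries and at 45.7 to 330 CPM in the 6 WT libraries. Xist was high in the 3 KO DSS libraries (903 to 1283 CPM) and in the third untreated WT library (1143 CPM), against at most 29.0 CPM in the other 8. Y-linked transcripts summed to at most 0.12 CPM in the 3 KO DSS libraries but to 30.1 CPM in that untreated WT library, which thus held both kinds of transcript, and to 175 to 241 CPM in the other 8. Within KO, treatment and sex-linked expression therefore cannot be told apart, and only the WT contrast has treated libraries without high Xist. The second WT DSS library stood apart from the others, with Lcn2 at 5730.2 CPM, the other neutrophil markers summing to 129.9 CPM against at most 34.1 CPM elsewhere, and a TMM factor of 0.758 against 0.953 to 1.13.

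Promoters were read for 6 of the separated interferon-stimulated genes, because the data turn on these genes moving together. The 6 were picked as those of largest fold change that hold the interferon-stimulated response element core, which 8 of the 20 genes matched to the table, among them Oasl2, Irf7 and Xaf1, do not. They are printed from the RefSeq table of GRCm38.p6 as 300-base windows (250 bases before and 50 bases from the start site, 5′ to 3′ on the gene's strand). Capitals mark every match, on either strand, to GAAANNGAA, the core of the interferon-stimulated response element. Overlapping matches run together.
Isg15 (chr4:156200769-156201068, - strand): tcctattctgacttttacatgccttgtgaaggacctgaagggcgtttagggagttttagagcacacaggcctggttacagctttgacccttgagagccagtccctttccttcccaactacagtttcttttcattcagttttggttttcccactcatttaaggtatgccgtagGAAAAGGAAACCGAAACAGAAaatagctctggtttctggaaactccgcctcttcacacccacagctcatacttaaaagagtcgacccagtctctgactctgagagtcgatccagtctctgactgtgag
Ifit1 (chr19:34640639-34640938, + strand): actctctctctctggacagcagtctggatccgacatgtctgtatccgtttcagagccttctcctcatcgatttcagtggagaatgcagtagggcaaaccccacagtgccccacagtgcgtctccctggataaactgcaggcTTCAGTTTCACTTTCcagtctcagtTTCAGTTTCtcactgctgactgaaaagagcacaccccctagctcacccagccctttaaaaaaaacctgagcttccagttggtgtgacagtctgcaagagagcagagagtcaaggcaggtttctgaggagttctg
Ifi44 (chr3:151749861-151750160, - strand): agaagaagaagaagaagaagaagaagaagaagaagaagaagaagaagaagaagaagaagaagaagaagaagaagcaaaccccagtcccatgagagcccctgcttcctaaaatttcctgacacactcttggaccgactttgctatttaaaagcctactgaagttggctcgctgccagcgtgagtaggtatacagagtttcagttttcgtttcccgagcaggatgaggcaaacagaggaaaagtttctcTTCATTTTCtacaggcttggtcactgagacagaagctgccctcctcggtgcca
Ifit3 (chr19:34583279-34583578, + strand): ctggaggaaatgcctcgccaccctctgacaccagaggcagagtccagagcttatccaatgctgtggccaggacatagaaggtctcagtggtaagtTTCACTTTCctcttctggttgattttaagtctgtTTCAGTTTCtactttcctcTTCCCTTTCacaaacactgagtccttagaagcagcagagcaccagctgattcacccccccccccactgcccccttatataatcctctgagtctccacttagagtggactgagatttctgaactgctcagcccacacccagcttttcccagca
Rsad2 (chr12:26456403-26456702, - strand): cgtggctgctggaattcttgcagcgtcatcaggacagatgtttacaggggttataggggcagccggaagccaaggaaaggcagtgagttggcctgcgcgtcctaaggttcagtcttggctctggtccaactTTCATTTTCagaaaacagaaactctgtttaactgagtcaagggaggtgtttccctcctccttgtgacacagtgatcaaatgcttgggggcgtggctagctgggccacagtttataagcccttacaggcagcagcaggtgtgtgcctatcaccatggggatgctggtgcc
Oas3 (chr5:120777610-120777909, - strand): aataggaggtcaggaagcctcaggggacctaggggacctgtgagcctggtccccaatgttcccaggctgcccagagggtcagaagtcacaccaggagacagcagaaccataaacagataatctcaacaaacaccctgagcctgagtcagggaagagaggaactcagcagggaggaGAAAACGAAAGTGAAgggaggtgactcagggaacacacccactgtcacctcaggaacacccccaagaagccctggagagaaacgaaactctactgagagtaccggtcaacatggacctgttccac

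The core stood 3 times in the Isg15 window, from 78, 72 and 66 bases before the start site, and 3 times in each of the Ifit1 and Ifit3 windows. It was found in 48.0% of the 25 windows of 20 separated interferon-stimulated genes that matched the table, against 8.56% of all 32851 windows of that length. Over the 281 windows of all higher genes that passed both criteria it was found in 16.0%, and in 12.9% once the interferon list was left out. Among the 99 windows of the lower genes 13.1% held the E-box CACGTG, which clock and ChREBP proteins bind, against 7.15% of all windows. For the D-box TTATGNAA the values were 4.04% of the windows of lower genes and 3.38% of all windows. The STAT site TTCNNNGAA was found in 9.25% of the windows of higher genes and in 8.30% of all windows. The kB site GGGANNTTC was found in 7.47% of the windows of higher genes and in 3.94% of all windows. It is shown in capitals for Cd274, which encodes PD-L1 and was shown for having the largest fold change among the higher genes with this match and a group mean of at least 1 CPM.
Cd274 (chr19:29367188-29367487, + strand): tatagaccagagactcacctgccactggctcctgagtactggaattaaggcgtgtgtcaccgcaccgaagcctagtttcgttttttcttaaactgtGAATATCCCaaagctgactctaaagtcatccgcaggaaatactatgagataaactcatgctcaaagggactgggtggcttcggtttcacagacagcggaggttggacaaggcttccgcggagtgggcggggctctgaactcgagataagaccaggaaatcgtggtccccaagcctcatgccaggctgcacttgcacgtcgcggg

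Cd274 stood at 2.47 to 7.60 CPM (median 4.51) in untreated and at 8.60 to 34.4 CPM (median 22.1) in treated livers. Its log2 fold change was 2.23 (standard error 0.26, edgeR adjusted p = 0.000577). The matches are letters in these windows and were not tested as binding sites. Of the 281 higher genes 206 matched the promoter table, and of the 111 lower genes 75 did.

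The test of DSS against untreated livers, edgeR's quasi-likelihood F test with genotype as an additive block, called 603 autosomal genes higher (4.35% of those tested) and 252 lower (1.82%) at a Benjamini-Hochberg adjusted p under 0.05. Genes both called and separated numbered 281 on the higher side (2.03%) and 111 on the lower side (0.801%). The separation uses the same contrast as the test and is no second line of evidence. Higher genes of this kind had a median log2 fold change of 1.06 and lower ones of -0.82, while the median over all 13853 genes was 0.02. An absolute log2 fold change of at least 1 was reached by 147 and 41 of them. Separation was often narrow: the nearest treated and untreated livers differed by less than 1.1-fold in 255 of the 501 genes and by more than 2-fold in 18. At the edge, Rasa4 was just inside, with 2.1052 CPM in the lowest treated against 2.1046 CPM in the highest untreated liver, and Tnip1 just outside, with 9.643 against 9.649 CPM.

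**Figure D1:**
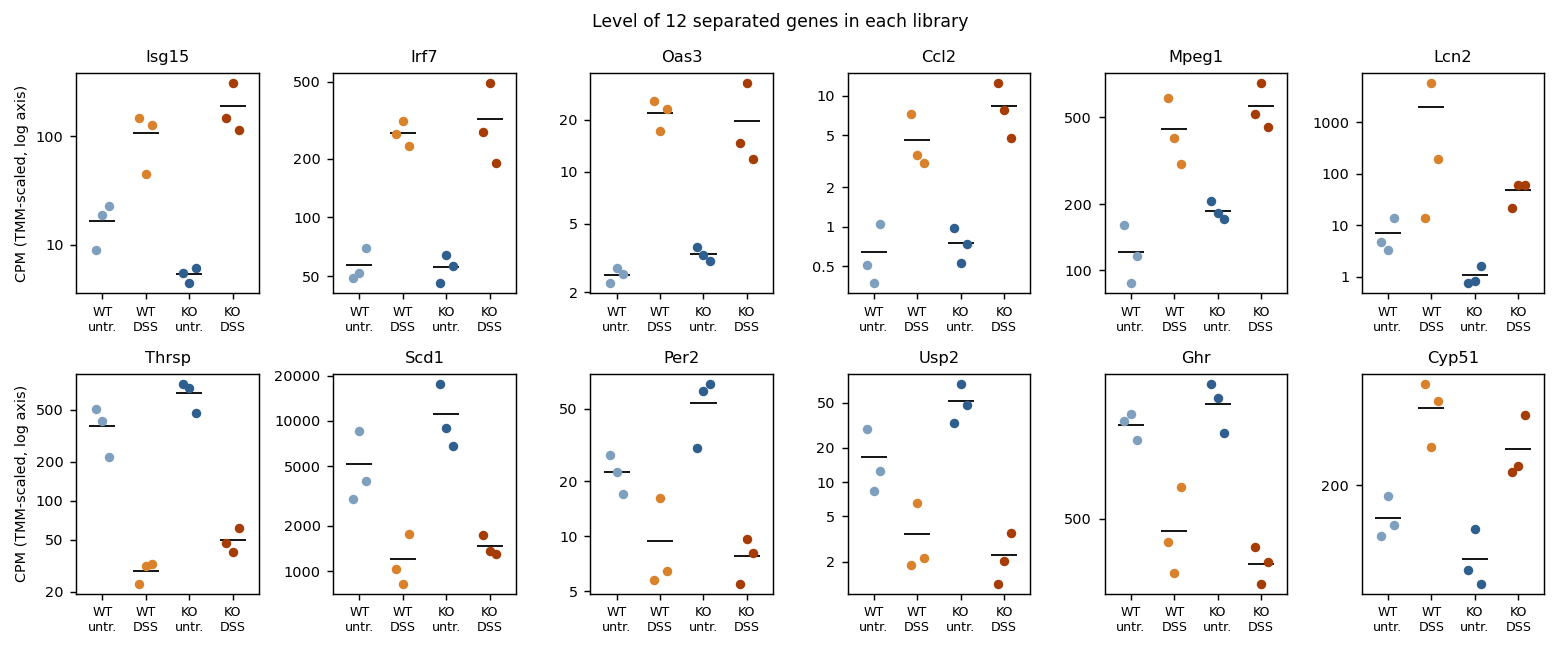
Level of 12 separated genes in each library (CPM scaled by TMM, log axis; points are mice, bars are means of 3). In each panel the 6 DSS livers lie on one side of the 6 untreated ones, from Isg15 (44.6 to 311 CPM against 4.37 to 22.6) to Thrsp (22.99 to 62.1 against 218 to 798).

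Interferon-stimulated genes held the most called genes of the 34 lists. Of 52 genes listed, 37 could be tested and 35 were called higher, none lower, where 4.35% of all genes were called higher. In 29 of the 37 all treated livers lay above all untreated ones. The other 15 had no located row under their symbol and were not analysed here. The median log2 fold change of the list was 2.00, and it was 1.67 in WT and 2.45 in KO, with a positive value for all 37 genes in each genotype. The 2 genes that did not pass were Bst2 (0.63, adjusted p = 0.106) and Trim25 (0.36, adjusted p = 0.115). Summed over the list, expression was 1127 to 1706 CPM in untreated and 2402 to 6638 CPM in treated livers. The lowest treated value was that of the second WT DSS library. Monocyte and neutrophil markers were also higher after DSS, and their part in this result was not tested.

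Isg15 (mm9 chr4:155573533-155574927), a ubiquitin-like protein that is attached to other proteins after interferon, had 8.87, 18.6 and 22.6 CPM in untreated WT livers and 150, 44.6 and 128 CPM in treated WT livers. In KO livers it had 5.45, 4.37 and 6.11 CPM untreated and 148, 311 and 114 CPM treated. No treated value overlapped an untreated one. The log2 fold change was 3.92 (standard error 0.60, edgeR adjusted p = 0.00468), at 2.69 in WT and 5.17 in KO, and the genotypes did not differ past the threshold (interaction adjusted p = 0.16). Ube2l6, the conjugating enzyme for Isg15, rose from 45.4 to 60.8 CPM to 106 to 165 CPM (log2 fold change 1.34, adjusted p = 0.00011), and Usp18, which removes it, also rose (2.30, adjusted p = 0.000577).

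Among the effectors, Ifit1, which binds foreign RNA at its end, stood at 6.59 to 27.1 CPM (median 12.05) without and at 42.7 to 317 CPM (median 243) with DSS (log2 fold change 3.84, adjusted p = 0.00374). Ifit3, its partner, rose by 3.51 on the log2 scale and Ifi44 by 3.65. Rsad2, the antiviral enzyme viperin, had 8.999 to 21.6 CPM in untreated and 24.4 to 258 CPM in treated livers, a log2 fold change of 3.38 (adjusted p = 0.00446). All these genes were lowest in the second WT DSS library among the treated livers. The smallest p-values were instead those of genes with an even rise: Xaf1, a partner of the apoptosis inhibitor XIAP, had 13.9 to 25.8 CPM in untreated and 69.7 to 151 CPM in treated livers (log2 fold change 2.45, standard error 0.20, adjusted p = 6.4e-05). Mx1 and Mx2, dynamin-like GTPases that block viruses, rose by 2.83 and 2.38.

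Oligoadenylate synthetases make the messenger that activates RNase L. Each of the 6 tested was called higher (4.35% of all genes) and 5 were separated (2.45% of all genes). Oas3 had 2.25 to 3.67 CPM (median 2.89) in untreated and 11.8 to 32.6 CPM (median 20.1) in treated livers, with log2 fold changes of 3.13 in WT and 2.56 in KO (2.84 in both together, adjusted p = 6.4e-05). Oasl2 rose by 3.35 and Oas2 by 1.87, the latter with the same estimate in both genotypes. Schlafen genes behaved alike: the 5 tested were called and separated (2.03% of all genes), from Slfn2 (1.53) to Slfn4 (5.09). Slfn1 had 0.428 to 0.960 CPM without and 2.13 to 6.72 CPM with DSS (log2 fold change 2.94, adjusted p = 0.00011). These families, like the Ifit and Trim30 genes, hold close paralogs, so how reads were divided among their members is uncertain.

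Several sensors of nucleic acids are members of the interferon list. Ddx58 (RIG-I), Ifih1 (MDA5) and Dhx58 (LGP2), which detect RNA in the cytoplasm, rose by 1.47, 1.51 and 2.36 on the log2 scale, and all were separated. Zbp1, a sensor of Z-form nucleic acid, rose by 2.95, and Eif2ak2 (PKR), a kinase that stops translation on double-stranded RNA, by 1.34. Of the Toll-like receptors 9 were tested, where 4.35% of all genes were called higher and 1.82% lower. Tlr3 (1.13), Tlr2 (1.66) and Tlr9 (1.78) rose and were separated, Tlr5, the flagellin receptor, fell by 0.90, and Tlr4, the endotoxin receptor, had a log2 fold change of 0.68 that did not pass (adjusted p = 0.0981).

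Irf7, the factor that amplifies interferon production, stood at 49.0, 51.6 and 69.5 CPM in untreated and at 270, 312 and 232 CPM in treated WT livers. In KO livers the values were 45.8, 64.0 and 56.2 CPM against 277, 490 and 191 CPM. The groups were far from overlapping, and the log2 fold change was 2.39 (standard error 0.21, adjusted p = 8.51e-05). Irf8, a myeloid factor, rose by 0.87 without being separated. Irf1, Irf2, Irf3, Irf4 and Irf5 did not pass, with log2 fold changes of 0.80, 0.13, 0.01, -0.14 and 0.47. Ligands were near background: the 10 interferon genes with a row summed to at most 0.755 CPM in any library, and the 2 tested had log2 fold changes of -0.44 and 0.47 that did not pass. Of the receptor subunits, Ifngr2 rose (0.84, adjusted p = 0.0069), whereas Ifnar1 (0.17) and Ifngr1 (0.35) did not pass.

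**Figure D2:**
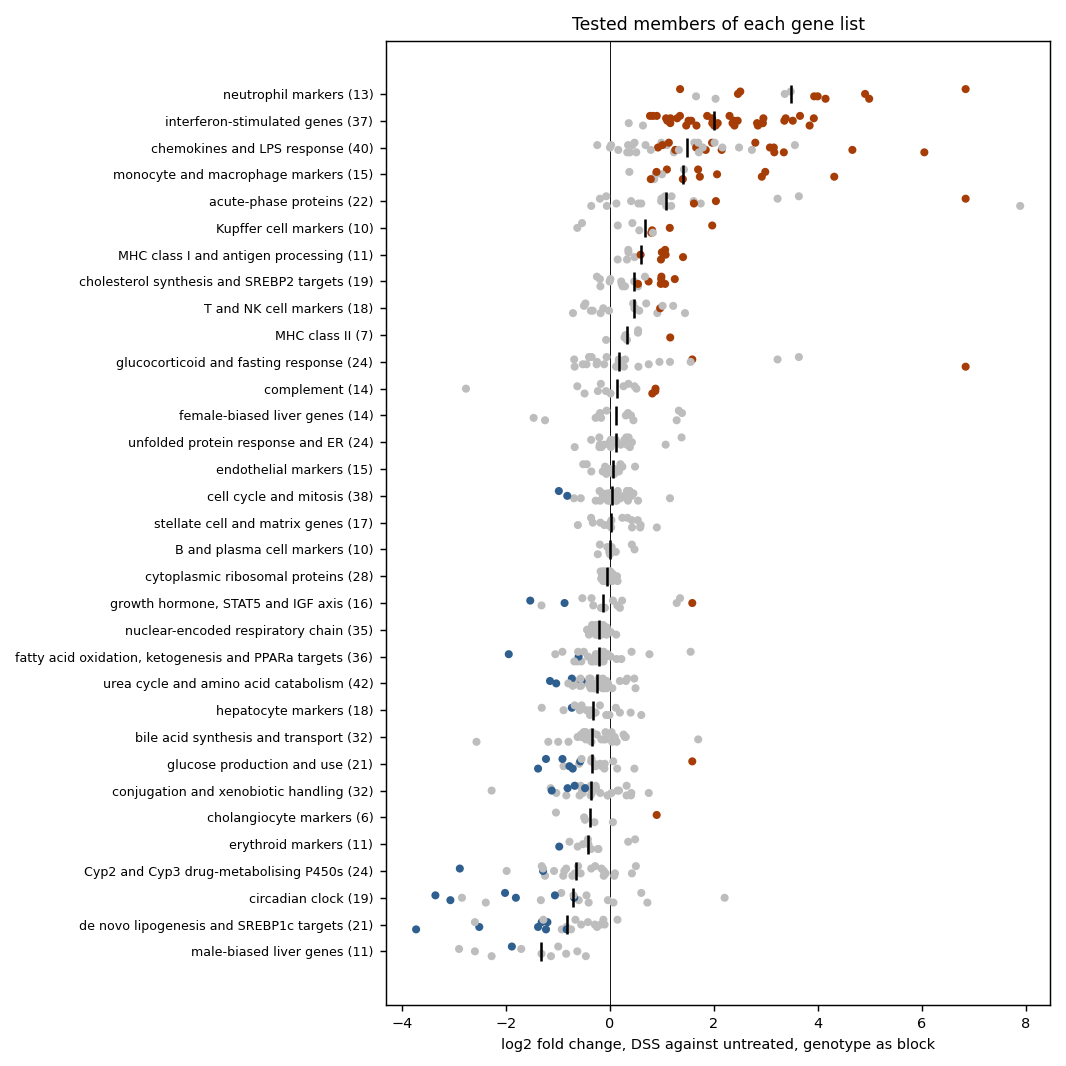
Log2 fold change of DSS against untreated, genotype as block, for the tested members of 33 gene lists with at least 6 tested genes (number in brackets). Red points were called higher and blue points lower, grey points were not called, and black bars are list medians, 2.00 for the interferon-stimulated genes and -0.83 for lipogenesis.

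Antigen processing rose in part. Of 11 tested genes of the MHC class I list 6 were called higher (4.35% of all genes) and none lower, with a median log2 fold change of 0.59. They were the peptide transporter subunits Tap1 (1.4) and Tap2 (1.07), the immunoproteasome subunits Psmb8 (1.06) and Psmb10 (0.98), the proteasome activator Psme2 (0.59) and Tapbpl, a peptide editor. Only Tapbpl was separated, at 17.7 to 21.5 CPM without and 31.6 to 60.8 CPM with DSS (log2 fold change 1.00, adjusted p = 0.000768). The GTPases Irgm1 and Gbp3, which defend against vacuolar pathogens, rose by 1.62 and 2.90 without being separated. Of the 7 class II genes tested, the protease Ctss alone passed (1.16), and the list had no call with high Xist as a covariate and in 10 of the 12 fits without 1 library.

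Chemokines and genes of the endotoxin response were the next group, with 15 of 40 tested genes called higher (4.35% of all genes), none lower, 10 separated (2.45% of all genes) and a median log2 fold change of 1.47. Ccl7, which draws monocytes through Ccr2, was at 0 in 4 untreated livers and at most 0.0905 CPM in the other 2, and at 0.791 to 2.97 CPM in the treated livers. Its fitted log2 fold change was 6.05 (standard error 0.77, adjusted p = 0.000989). With untreated livers at or near 0, this fitted value does not measure the size of the rise and is no bound. Ccl2, the principal Ccr2 ligand, had 0.513, 0.369 and 1.06 CPM in untreated WT livers against 7.18, 3.52 and 3.08 CPM after DSS. In KO livers it had 0.970, 0.524 and 0.742 CPM against 12.4, 7.83 and 4.72 CPM. Ccl2 was thus clear of overlap in each genotype, with log2 fold changes of 2.83 and 3.48 (3.16 together, adjusted p = 0.000498). Cxcl13, a B cell attractant, rose by 3.15. Cxcl10, an interferon-induced attractant of T cells, was called (2.15, adjusted p = 0.047) but not separated, since the second WT DSS library held 2.83 CPM.

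Socs1, an inhibitor of interferon receptors, had 0.105 to 0.715 CPM (median 0.436) in untreated and 0.828 to 4.89 CPM (median 3.29) in treated livers (log2 fold change 2.79, adjusted p = 0.000789). Irak3, which restrains Toll-like receptors, rose by 1.84 and was separated. Tnfaip3, an inhibitor of NF-kB, rose by 1.13 and Il1rn, the interleukin 1 receptor antagonist, by 3.34, both without separation. Socs3, which is induced by Stat3, was separated but did not pass (1.71, adjusted p = 0.0882), with 69.9 CPM in the second WT DSS library and 8.43 to 26.1 CPM in the other treated livers. Icam1, an adhesion molecule for leukocytes, rose from 12.7 to 18.5 CPM to 18.8 to 40.4 CPM (0.92, adjusted p = 0.0191). Il6 was at 0 in 5 untreated livers and at 0.082 CPM in the other, against 0.141 to 0.462 CPM in treated livers.

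NF-kB genes were grouped after their values were seen. Of 11 subunits and inhibitors tested, 6 were called higher (4.35% of all genes) and none lower. Relb and Nfkb2, the subunits of the alternative pathway, rose by 1.53 and 0.93, and Nfkbiz and Nfkbie, inhibitor-like proteins, by 1.25 and 0.75, and all 4 were separated. Rel (0.47) and Nfkb1 (0.42) also rose. Rela itself had a log2 fold change of 0.03 (adjusted p = 0.947) and Nfkbia of 0.33 (adjusted p = 0.435). Stat3 had a log2 fold change of 0.84 (adjusted p = 0.3), at 1.37 in WT and 0.31 in KO.

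Macrophage and monocyte transcripts were higher in treated livers of both genotypes. Of 15 tested markers 10 were called higher (4.35% of all genes), none lower, 7 were separated (2.45% of all genes), and the median log2 fold change was 1.4 (1.49 in WT, 1.54 in KO). Mpeg1, a pore-forming protein of macrophages, had 161, 87.2 and 116 CPM in untreated and 616, 403 and 307 CPM in treated WT livers. In KO livers it had 208, 183 and 171 CPM against 520, 716 and 451 CPM. These did not overlap, and the log2 fold change was 1.73 (standard error 0.20, adjusted p = 0.000577). Fcgr1, the high-affinity IgG receptor, rose by 1.69 and Fcgr4 by 1.4. Ms4a4c and Plac8, transcripts of classical monocytes, rose by 2.99 and 2.06, and Chi3l3, a chitinase-like protein with close paralogs, by 4.31. Summed, the markers lay between 193 and 371 CPM in untreated and between 475 and 1107 CPM in treated livers.

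Resident Kupffer cell markers overlapped between the groups. Of 10 tested, 4 were called higher (Clec4f 0.79, Timd4 0.81, Cd5l 1.15, Marco 1.97), where 4.35% of all genes were, and none was separated. The list's sum was 628 to 940 CPM in untreated and 887 to 1498 CPM in treated livers. The 4 calls became 0 with high Xist as a covariate and 0 to 6 without 1 library (0 without untreated KO mouse 2 or 3). Of 14 complement genes tested 3 were called higher (4.35% of all genes) and none lower, namely C1qa, C1qb and C1qc (0.81 to 0.87), which macrophages express. Of the 14 values 6 were negative, and the list's medians were 0.65 in WT and -0.06 in KO. Neutrophil markers were called higher in 9 of 13 tested genes (4.35% of all genes), S100a8 (4.15) and S100a9 (3.93) among them, but Lcn2 alone was separated (2.45% of all genes). The 9 calls became 2 with high Xist as a covariate, 2 to 9 without 1 library (2 without untreated KO mouse 1 or untreated WT mouse 2) and 0 in WT alone. Their sum without Lcn2, which hepatocytes also make, was 2.08 to 7.60 CPM in untreated and 5.72 to 129.9 CPM in treated livers and overlapped, since the third WT DSS library held 5.72 CPM. Lcn2 supplied most of the sum of the whole list in 5 of the 6 treated libraries, 5730.2 of 5860.0 CPM in the second WT DSS library. Klrk1, a receptor of natural killer cells, was the only one of 18 T and natural killer cell markers that passed (0.96, adjusted p = 0.0361). It lost its call in 8 of the fits without 1 library and with high Xist as a covariate. That list's sum overlapped (13.7 to 31.4 against 10.8 to 51.1 CPM). The list's medians were -0.45 in WT and 0.85 in KO, and 6 of its genes were called higher in KO libraries alone, where high Xist and treatment coincide. None of the 10 B cell, 15 endothelial or 17 stellate cell genes tested was called by edgeR (0, 3 and 4 at an unadjusted p under 0.05). DESeq2 called 0, 3 and 0 of them and limma-voom none. Their medians differed in sign between WT and KO (B cell -0.95 and 1.20, endothelial -0.24 and 0.25, stellate -0.28 and 0.63), 2 stellate genes passed the interaction test, and 1, 3 and 5 genes were called higher in KO libraries alone.

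**Figure D3:**
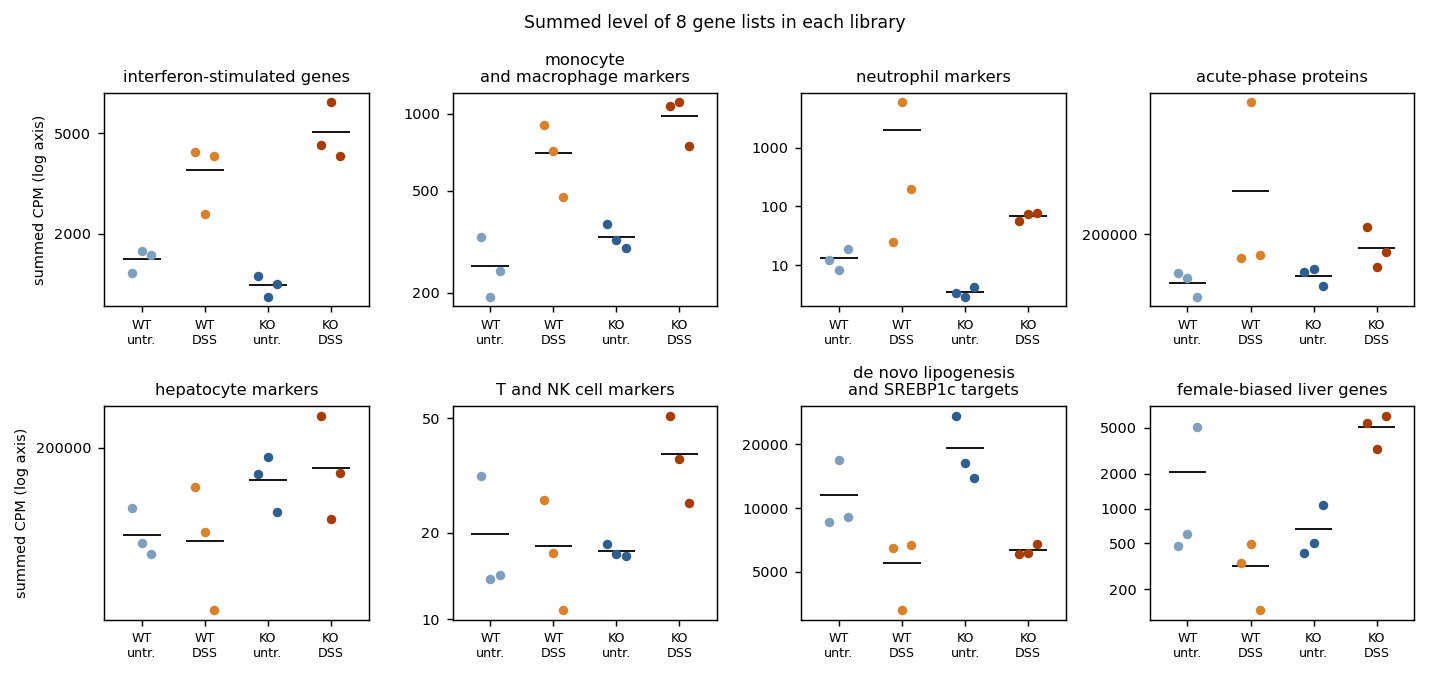
Summed level of 8 gene lists in each library (CPM scaled by TMM, log axis; points are mice, bars are means of 3). Interferon-stimulated, monocyte, neutrophil and acute-phase sums are higher in treated livers without overlap, the acute-phase sums by a narrow margin, and lipogenesis sums are lower without overlap. Neutrophil and acute-phase sums are highest in 1 WT DSS library (5860.0 CPM, of which 5730.2 are Lcn2, a gene of both lists, and 387283 CPM). Female-biased genes are high in the 3 KO DSS libraries and 1 untreated WT library.

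Lcn2 (mm9 chr2:32240153-32243317), a siderophore-binding acute-phase protein that neutrophils also make, had the largest fold change of the named genes. It had 4.66, 3.29 and 13.6 CPM in untreated and 14.2, 5730.2 and 196 CPM in treated WT livers. In KO livers it had 0.744, 0.842 and 1.63 CPM against 21.8, 61.4 and 61.8 CPM. Separation thus rested on 14.2 against 13.6 CPM, and the log2 fold change was 6.84 (standard error 1.44, adjusted p = 0.0251). The call was lost in 6 of the fits that left out 1 library (log2 fold change 4.74 to 7.17, highest adjusted p 0.0709). Of 22 acute-phase genes tested Lcn2, Lbp (1.61) and Apcs (2.04) were called higher (4.35% of all genes) and none lower. These 3 calls became 0 in WT alone and 0 to 6 without 1 library, with 0 in 6 of those 12 fits. Ceruloplasmin, Cp, was separated but did not pass (0.98, adjusted p = 0.0695). The list had a median of 1.80 in WT and 0.42 in KO, and no member differed between genotypes past the threshold. Its sum did not overlap, at 146180 to 168071 CPM in untreated and 169594 to 387283 CPM in treated livers, and was highest in the second WT DSS library. The margin was narrow, and the list also names Alb, Ttr and Trf, which are hepatocyte markers here, so the sum does not measure acute-phase induction alone.

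Lipogenic genes had the most called genes of the 34 lists on the lower side (7), with 4 separated, while urea cycle and amino acid catabolism had 5 separated. Thrsp (mm9 chr7:104561448-104566240), which promotes the transcription of lipogenic enzymes, had 506, 411 and 218 CPM in untreated and 22.99, 31.4 and 32.6 CPM in treated WT livers. In KO livers it had 798, 743 and 473 CPM against 47.0, 40.0 and 62.1 CPM. No treated value came near the lowest untreated one. Its log2 fold change of -3.73 (standard error 0.23, adjusted p = 5.6e-06) had the smallest p-value of all genes, at -3.71 in WT and -3.76 in KO. Scd1 (mm9 chr19:44468941-44482199), the desaturase that makes oleate, fell from 3029 to 17700.2 CPM (median 7672) to 825 to 1768 CPM (median 1324), a log2 fold change of -2.52 (adjusted p = 0.00144).

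Of 21 lipogenic genes tested 7 were called lower, against 1.82% of all genes, none was called higher and 4 were separated. Elovl6, which lengthens palmitate, fell by 1.32 on the log2 scale and Pklr, liver pyruvate kinase, by 1.39. Acacb, which makes the malonyl-CoA that blocks fatty acid import into mitochondria, fell by 1.20, and Mlxipl, which encodes ChREBP, by 0.83. The list's median was -0.83, at -0.47 in WT and -1.13 in KO, and 20 of the 21 values were negative. Its sum, 8599 to 27265 CPM in untreated and 3308 to 6799 CPM in treated livers, did not overlap. The 4 separated genes kept their calls in every fit that left out 1 library.

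Some genes of cholesterol synthesis moved the other way. Sqle, squalene epoxidase, had 98.9 to 147 CPM (median 113) without and 158 to 285 CPM (median 225) with DSS, a log2 fold change of 0.98 in each genotype (adjusted p = 0.00185). Cyp51, lanosterol demethylase, stood at 109 to 188 CPM against 216 to 375 CPM (0.98, adjusted p = 0.00196), and Idi1, which isomerises isopentenyl diphosphate, rose by 1.25. None of the 3 overlapped. Sc4mol (1.06), Mvk (0.99), Fdft1 (0.74) and the regulator Srebf2 (0.54) were called without separation, so that 7 of 19 tested genes were called higher (4.35% of all genes) and none lower. The list's sum overlapped, at 3085 to 5200 CPM in untreated and 3755 to 5788 CPM in treated livers.

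Clock genes fell in part, 6 of 19 tested being called lower (1.82% of all genes), none higher, and 2 separated (1.16% of all genes). The list's median was -0.47 in WT and -1.54 in KO, with 7 and 5 of the 19 values positive. In WT libraries alone 0 were called lower and in KO libraries alone, where high Xist and treatment coincide, 11. The list's sum overlapped, at 878 to 1158 CPM in untreated and 564 to 912 CPM in treated livers. Per2, a repressor of the clock, had 27.9, 22.4 and 17.0 CPM in untreated and 5.76, 16.3 and 6.43 CPM in treated WT livers. In KO livers the values were 30.4, 62.8 and 68.7 CPM against 5.51, 9.68 and 8.11 CPM. The nearest pair was 16.3 and 17.0 CPM, and the log2 fold change was -2.02 (standard error 0.39, adjusted p = 0.0143). Usp2, a deubiquitinase under clock control, fell by 3.36, and the output factors Dbp, Tef and Hlf by 3.07, 1.81 and 1.06 without separation. Arntl and Npas2, which peak in the opposite phase, had log2 fold changes of 0.72 and 2.2 that did not pass (adjusted p = 0.164 and 0.123). Time of day at collection was not given, so treatment and collection time cannot be told apart.

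Drug metabolism held a few members. Cyp2b10, a P450 induced through the receptor CAR, had 8.27 to 28.8 CPM (median 17.5) in untreated and 0.163 to 6.09 CPM (median 2.86) in treated livers and fell by 2.89 on the log2 scale (adjusted p = 0.00801). Cyp1a1, an aryl hydrocarbon receptor target, fell by 1.29, and Cyp1a2 was separated with the same estimate of -1.29 but did not pass (adjusted p = 0.255), its 14.6 CPM in the second WT DSS library lying far below the other treated values of 221 to 559 CPM. These P450 genes have close paralogs. Nr1i3, which encodes CAR, and Nr1i2, which encodes PXR, fell by 0.68 and 0.48 without separation. Of 24 P450 genes tested 2 were called lower, and of 32 conjugation genes 4 were, where 1.82% of all genes were. Without 1 library these counts ran from 2 to 5 and from 1 to 6, both highest without the second WT DSS library, and the conjugation count was 2 with high Xist as a covariate.

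Ghr, the growth hormone receptor, had 779, 804 and 714 CPM in untreated and 449, 390 and 577 CPM in treated WT livers, and 925, 867 and 739 CPM against 439, 372 and 410 CPM in KO livers. It fell by 0.88 (standard error 0.13, adjusted p = 0.00298), and the lowest untreated value lay above the highest treated one. Serpina6, the carrier of corticosteroids in blood, fell by 1.54 and lost its call in 8 of 12 fits without 1 library. In the list of urea cycle and amino acid catabolism 4 of 42 tested genes were called lower (1.82% of all genes) and none higher. Of the 42 genes 5 were separated (1.16% of all genes) and 36 had a negative log2 fold change (median -0.26). The 4 calls became 0 to 6 without 1 library (0 without KO DSS mouse 2 or untreated KO mouse 2). Sardh, Prodh2 and Slc25a13, enzymes of sarcosine and hydroxyproline breakdown and a mitochondrial aspartate-glutamate carrier, were separated without passing (-0.56, -0.40 and -0.35). Of the members that passed, Gnmt, which consumes S-adenosylmethionine, fell by 0.55 and Oat, ornithine aminotransferase, by 1.04, both separated. Without 1 library Oat lost its call in 10 of 12 fits (highest adjusted p 0.084) and Gnmt in 6 (highest adjusted p 0.0783). Acaa1b, a peroxisomal thiolase, fell by 1.95 and was the separated member among 36 fatty acid oxidation genes, of which 2 were called lower against 1.82% of all genes. Acaa1b lost its call in 8 of 12 fits without 1 library (highest adjusted p 0.0873), and the 2 calls of the list became 0 to 5, with 0 in each fit without a KO library. Inmt, a methyltransferase for indolamines, had 627 to 1036 CPM without and 22.1 to 297 CPM with DSS (-2.21, adjusted p = 0.00831). Slc1a2, the glutamate transporter of perivenous hepatocytes, fell by 2.15.

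Further genes named by the largest fold or the smallest p-value had no list. Adamts6, a secreted metalloproteinase, had 1.02 to 2.07 CPM in untreated and 6.95 to 12.4 CPM in treated livers (log2 fold change 2.68, adjusted p = 6.4e-05). Shisa5, a p53-induced membrane protein, rose by 1.46 and Pyhin1, of the interferon-inducible p200 family, by 2.28. On the lower side Wee1, the kinase that holds back mitosis, had 6.02 to 20.4 CPM in untreated and 2.02 to 3.22 CPM in treated livers (-1.88, adjusted p = 0.00098). Lipg, endothelial lipase, fell by 2.06, Hcn3, a cation channel, by 2.72, P2ry1, a purinergic receptor, by 0.79, Nkd1, an inhibitor of Wnt signalling, by 0.82, and Timm9, a chaperone of mitochondrial import, by 0.81. Ankrd55 (-3.30), A630031M04Rik (-2.63), D0H4S114 (-2.58), Glns-ps1 (-2.19) and 2610021A01Rik (-0.75) were named by the same rule, with no role given here.

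**Figure D4:**
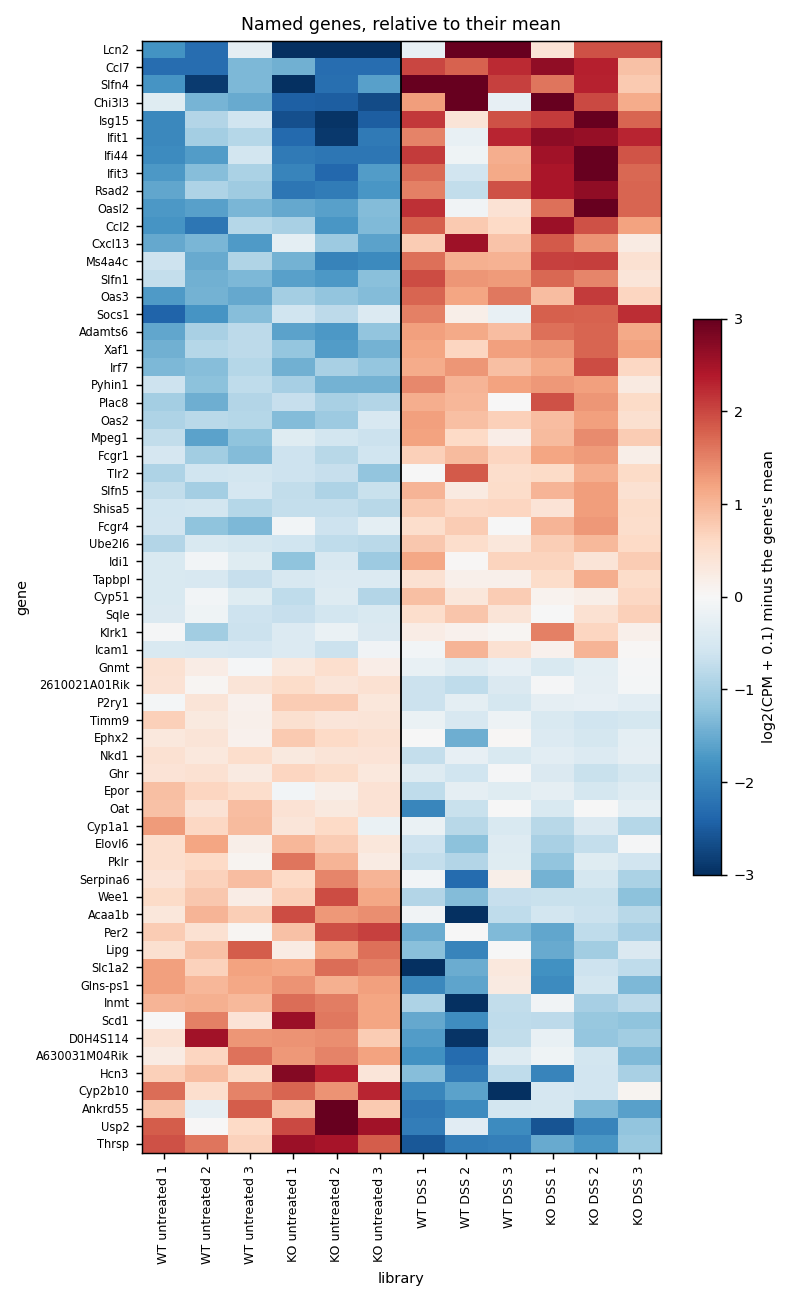
The 63 named genes (rows) in 12 libraries (columns), coloured by log2(CPM + 0.1) minus the gene's mean, with colours saturating at 3. Untreated libraries stand left of the line and treated ones right of it, and of the 63 genes 35 are higher and 28 lower after DSS, the direction being fixed by how they were chosen.

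Bile acid synthesis and transport held no gene called by edgeR among 32 tested (9 at an unadjusted p under 0.05, which 21.3% of all genes reached, and 4 called by DESeq2 and 1 by limma-voom), and none was separated (median log2 fold change -0.35). In KO libraries alone 8 were called lower. In that fit 577 autosomal genes were called lower, 10 male-biased liver genes among them, and treatment cannot be told apart from sex-linked expression. Cyp7a1, the rate-limiting enzyme, had a log2 fold change of -2.57 that did not pass (adjusted p = 0.0987). The 24 tested genes of the unfolded protein response and the 28 ribosomal protein genes likewise gave no call by edgeR, with medians of 0.12 and -0.06, 3 and 0 genes at an unadjusted p under 0.05, 2 and 0 calls by DESeq2 and none by limma-voom. For the respiratory chain 33 of 35 nuclear genes had a negative log2 fold change (median -0.21), none past the threshold (9 at an unadjusted p under 0.05, 5 called by DESeq2, 0 by limma-voom), and Cyc1 alone was separated (-0.44, adjusted p = 0.0564). Cell cycle genes had opposite medians in the genotypes, -0.94 in WT and 1.01 in KO. Tk1 and Rrm2, enzymes of nucleotide supply, were the 2 of 38 called lower in the shared test (1.82% of all genes). In KO libraries alone, where 942 autosomal genes were called higher, 11 cell cycle genes were called higher and 2 lower. Treatment and sex-linked expression coincide there as well. Of the cell cycle genes 4 passed the interaction test. Of 21 genes of glucose production and use 6 fell (1.82% of all genes), among them Slc2a2, the glucose transporter, and Pygl, glycogen phosphorylase, and Igfbp1, an insulin-regulated binding protein, rose. The 6 calls became 3 with high Xist as a covariate and 3 to 7 without 1 library.

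The size of the shared changes was compared between the genotypes. Tested separately in a model of 4 groups, 112 autosomal genes (0.808%) passed for DSS in WT and 1110 (8.01%) in KO. In KO, treatment and sex-linked expression coincide, and the WT contrast includes the second WT DSS library, which stood apart. Neither these counts nor those below therefore compare the strength of the DSS response between genotypes. Across all 13853 genes the log2 fold changes of the genotypes had a Pearson correlation of 0.147 and a Spearman correlation of 0.140, and 54.4% had the same sign. The contrasts share no library, and genes are not independent replicates. Among the 281 higher genes the median was 0.96 in WT and 1.16 in KO, and 59 passed in the WT contrast and 212 in the KO contrast. For the 111 lower genes the medians were -0.74 and -0.94, and 14 and 65 passed. A larger absolute value in WT was found for 88 of the higher and 37 of the lower genes. The 281 and 111 genes were selected on these same libraries, so their medians and calls within each genotype describe them and are no independent support.

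The difference in DSS response between genotypes passed the threshold in 59 autosomal genes (0.426%). None of the 392 called and separated genes was among them, and 50 of the 392 (12.8%) had an unadjusted p under 0.05 by the same edgeR test, against 16.6% of all genes tested. Requiring both genotypes on one side selects against such a difference, so neither count is evidence that the responses were alike. A missed threshold does not show that the responses were equal: the interaction for Isg15 was 2.48 (KO minus WT, standard error 0.72). For Thrsp it was -0.05 (standard error 0.42).

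**Figure D5:**
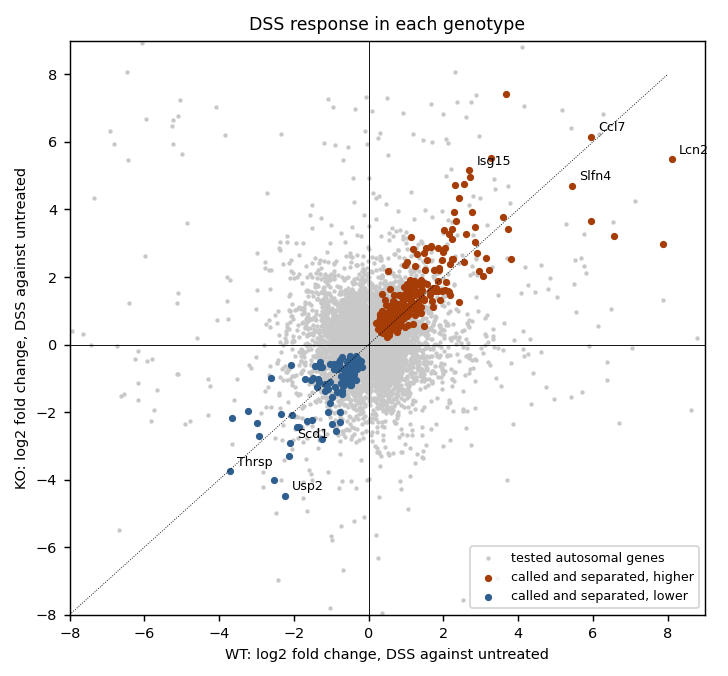
Log2 fold change of DSS against untreated in WT (x axis) and KO (y axis) for tested autosomal genes; 17 genes lie outside the axes, and the dotted line marks equal responses. Called and separated genes lie in the quadrants of equal sign, which their selection all but fixes, with Thrsp on the line (-3.71 and -3.76) and Isg15 above it (2.69 and 5.17).

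Sex-linked expression moved with treatment in KO. Female-biased liver genes had a median log2 fold change of -2.19 in WT and 1.99 in KO, male-biased genes of 0.27 and -2.57, and neither list held a separated gene. With high Xist as a covariate 310 of the 392 genes kept their call, 235 higher and 75 lower. High Xist and treatment coincide in KO, so this fit could not adjust within KO. The KO libraries could inform its treatment effect only through the third untreated WT library, which had high Xist but also held Y-linked transcripts. In that fit 34 interferon-stimulated genes were called, and the named genes that lost theirs were Acaa1b, Ankrd55, Ephx2, Gnmt, Klrk1, Lcn2, Serpina6 and Slc1a2. In that order, their log2 fold changes with the covariate were -1.86, -3.25, -0.72, -0.49, 0.88, 6.95, -1.44 and -2.09. Their edgeR adjusted p-values in that fit ran from 0.0542 to 0.1003. Without the 4 libraries of high Xist the DSS effect came from WT mice only, and 9 of the 392 kept their call, Thrsp (-3.98), Oas3, Irf7, Xaf1 and Shisa5 among them. Of the 391 tested in that fit 0 changed sign, which their choice as separated genes all but fixed beforehand and which is no support. The interferon list's median was 1.88, against 2.00 in the main fit.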

How the data were processed

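Liver RNA from 12 mice was rRNA-depleted and sequenced paired-end. The authors trimmed reads with fastp, aligned them to mm9 with HISAT2 and deposited StringTie's estimated counts (expected counts, whole numbers) per gene. The strandedness of counting was not given in the sources used here. Every column was used (0 unused). Names and mm9 positions came from GENCODE vM1, in which 22932 of 51609 rows had no location, and these entered the fit but are not reported. Counts were tested with edgeR 4.0.16 in R 4.3.3 (TMM, filterByExpr by group, robust quasi-likelihood F test, genotype plus treatment, 9 residual degrees of freedom), with Benjamini-Hochberg adjustment over 17652 genes, of which 13853 were autosomal. Interactions came from a model of 4 groups. DESeq2 1.42.0, limma-voom (limma 3.58.1), other scalings and filters, a replicate block, high Xist (over 100 CPM) as a sex covariate and each library left out were the alternatives. P-values of the model of 4 groups measure the spread between 3 mice per group. Those of the additive test also count any genotype difference in the DSS response as spread.

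Genes were named from those called, separated and with a group mean of at least 1 CPM: the 12 largest folds and the 8 smallest p-values in each direction and up to 6 per list. Genes outside this rule are named where a list count or a test turns on them. Of 944 members of 34 lists 727 matched a row, 8 by an older symbol. Members and lists were chosen with earlier results of these data known, and the 9 families after their values were seen. The scripts were checked on simulated counts. Total counts of 65879529 to 82850098 per library make counting error small for genes above 1 CPM, and 35 separated genes lay below it. Some genes are not reported here.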

Additional observations from a re-analysis of the deposited data

Results flagged for a closer look

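The genotypes differed in their response to DSS, by the edgeR interaction test, in 4 genes that were called or separated in the shared test. For Acaa1a, a peroxisomal thiolase, the log2 difference (KO minus WT) was -0.90 (adjusted p = 0.0431), with a log2 fold change of -0.15 in WT and -1.06 in KO. Slc25a37, the mitochondrial iron importer mitoferrin, differed by -1.10 (adjusted p = 0.0364), at -0.13 in WT and -1.23 in KO. Klf6, a zinc finger factor, differed by 1.08 (adjusted p = 0.0431), at 0.24 in WT and 1.32 in KO, with 39.2 to 39.9 CPM in the treated KO livers. 2010002M12Rik differed by 8.36 (adjusted p = 0.01), but its 3 untreated KO libraries were at 0, so this fitted value is no bound. It had 0.961 to 2.31 CPM in treated KO livers and was separated without passing the shared test (adjusted p = 0.0513). All 3 treated KO libraries had high Xist, and its part in these differences was not tested.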

How the results depend on the processing

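Of the 63 named genes 50 kept their call in every fit without 1 library and 7 in every other fit. None changed direction, which their choice as separated genes all but fixed beforehand. The most often lost without 1 library were Oat (10 of 12 fits), Ephx2 (9), Acaa1b, Klrk1 and Serpina6 (8 each). Of the 392 called and separated genes, DESeq2 called 390, limma-voom 382, scaling by library size alone 288 and the fits without 1 library 284 to 383. The 603 higher calls became 971 with DESeq2, 942 in KO alone, 13 in WT alone, 351 with library size alone, 8 without high Xist, 269 with an added fold minimum, and 322 to 739 without 1 library, the lowest without untreated KO mouse 2. Lower calls (252) became 614, 577 and 7 under the first 3, 389 as a mean of within-genotype contrasts, 7 without high Xist, 146 with the sex covariate, 70 with the fold minimum and 107 to 378 without 1 library, again lowest without untreated KO mouse 2. Separated genes became 184 higher with library size alone and 772 higher and 720 lower without high Xist, and 361 to 600 higher and 185 to 291 lower without 1 library, most without WT DSS mouse 3. Separation is easier to meet with fewer libraries, so a rise in its counts when libraries are left out is built in. In WT alone and without high Xist, interferon calls were 6 and 4, chemokine calls 0 and 0, monocyte calls 0 and 0, lipogenic calls 1 and 1, cholesterol calls 0 and 0 and clock calls 0 and 0. The lists' median log2 fold changes kept their sign in both fits, given here with the main fit in brackets. They were 1.66 and 1.88 (2.00) for interferon, 1.3 and 1.3 (1.47) for chemokine and 1.5 and 0.93 (1.4) for monocyte genes. For lipogenic, cholesterol and clock genes they were -0.48 and -0.55 (-0.83), 0.51 and 0.39 (0.46), and -0.48 and -0.49 (-0.7). Without 1 library the calls of these lists, in the same order, ran 34 to 36, 8 to 18 (8 without untreated KO mouse 2), 8 to 11, 5 to 8, 5 to 8 and 3 to 9 (3 without KO DSS mouse 2). Lipogenic calls were 12 with DESeq2 and 11 in KO alone, clock calls 10 and 11. The cause of the other shifts was not tested.

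Same-numbered libraries correlated at -0.073 to 0.206, over 0.1 in 5 of 18 pairs, so the numbers were not taken as pairs. No library correlated best with its own number in every other group. With the replicate block 493 genes were called higher and 174 lower, 344 of the 392 kept their call and clock calls were 10. Under the block neutrophil calls fell from 9 to 2, acute-phase calls from 3 to 0 and 6 named genes lost their call: Ankrd55, Epor, Gnmt, Lcn2, Oat and Serpina6 (adjusted p 0.0529 to 0.063). The log2 fold changes of these 6 under the block were, in that order, -3.13, -0.98, -0.54, 5.84, -1.08 and -1.55.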

Other observations

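Genes outside the lists, chosen after their values were seen, were also called and separated. Ddx60, a helicase that aids RNA sensing, stood at 6.83 to 19.6 CPM in untreated and 41.7 to 108 CPM in treated livers (log2 fold change 2.71 by edgeR). Siglec1, the macrophage lectin CD169, rose by 1.62 and Il18bp, the inhibitor of interleukin 18, by 1.83. Ly6e, an interferon-induced surface protein, had 291 to 440 CPM against 795 to 1444 CPM, and Fos, an AP-1 subunit, 0.526 to 2.49 CPM against 4.26 to 7.95 CPM. On the lower side Vldlr, a lipoprotein receptor, fell by 1.79, Agpat6, an enzyme of glycerolipid synthesis, by 0.96, Fitm2, which helps form lipid droplets, by 0.81, and Prkaa2, a catalytic subunit of AMPK, by 0.77.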
